A study of Mus musculus with 8 samples.

Results

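Hormone receptor genes and luminal genes that sense or relay ovarian and pituitary hormones were followed in the mammary epithelium of pregnant mice. They were taken by gene name from the 55933 genes of the deposited expression table, 9 of which carry the names Esr1, Pgr, Prlr, Foxa1, Cited1, Tbx3, Greb1, Tnfsf11 and Tnfrsf11a. RNA-seq had been performed on mammary epithelium of C57BL/6 mice at pregnancy day 14.5, with 4 libraries labelled WT (the controls, described in the study as littermates) and 4 labelled cKO, 1 library per mouse. The cKO mice carried K14-rtTA, teto-Cre and Bmpr1a fl/fl and received doxycycline in their drinking water, so that Cre is made where the K14 promoter is active, in the myoepithelial (basal) layer, and removes the BMP receptor gene Bmpr1a there. The alleles of the control mice, and whether they also drank doxycycline, are not given for these libraries. The cells had been released from whole glands by collagenase and hyaluronidase and were not sorted, so hormone-sensing cells are a part of each library, and a smaller number of such cells cannot be told apart from less RNA per cell.

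Estrogen, progesterone and prolactin act on the mammary gland through receptors that are made mainly by a subset of luminal cells, the hormone-sensing cells. These cells answer the hormones themselves and pass the signal on to their neighbours by secreted factors. The best known of these is RANKL, encoded by Tnfsf11, which is induced by progesterone and binds its receptor RANK, encoded by Tnfrsf11a, on neighbouring progenitor and basal cells. The prolactin receptor acts in the alveolar cells as well, where it switches on milk protein genes through JAK2 and STAT5.

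Between 16123108 and 19896988 reads lay on genes in each library, and the values are given as FPKM (fragments per kilobase of gene, normalised for sequencing depth). Bmpr1a itself was not lower in the libraries labelled cKO, with 10.6, 11.7, 8.74 and 9.52 FPKM in the control libraries and 12.0, 12.0, 10.2 and 10.4 FPKM in the cKO libraries (10.1 ± 1.28 against 11.2 ± 1.01, mean ± SD, n = 4 each). Since the count covers the whole gene and all cells of the preparation, it does not check the deletion in the basal layer, and every direction below rests on the labels.

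Of the 9 genes, 8 had a mean of at least 0.5 FPKM and were tested with all 15143 genes that passed this filter, and Greb1 lay below it. Cited1 alone passed an adjusted p of 0.05 (limma on log2(FPKM + 1) with Benjamini-Hochberg adjustment), against 0.892% of all genes tested (0.304% lower and 0.588% higher in cKO). At an unadjusted p under 0.05, 2 of the 8 genes were called, Cited1 (lower in cKO) and Tnfrsf11a (higher), against 16.4% of all genes tested (7.53% lower and 8.85% higher). The groups did not overlap for 1 of the 8 genes, again Cited1, against 10.7% of all genes (4.6% lower and 6.1% higher). The median log2 difference was -0.05 over the 8 genes and 0.00 over all genes tested, and 4 of the 8 had a higher mean in cKO and 4 a lower mean.

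**Figure D1:**
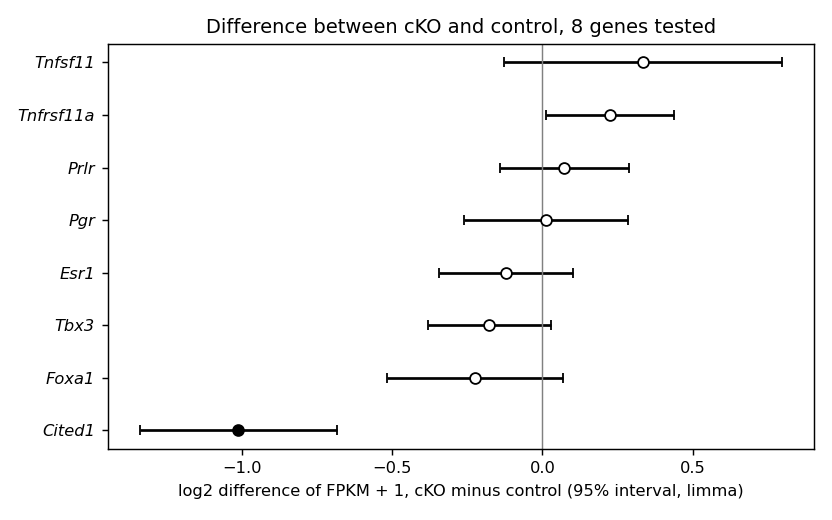
Difference between cKO and control mice for the 8 genes tested, as the log2 difference of FPKM + 1 (cKO minus control, x axis), with 95% intervals from limma and 4 libraries per group. The filled point has an adjusted p under 0.05. Cited1 lies at -1.01, the interval of Tnfrsf11a starts just above 0, and the intervals of the other 6 genes include 0.

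The receptors for the 3 hormones were measured at low levels, and none of them passed the test. Esr1 (ENSMUSG00000019768, chr10:4611593-5005614, plus strand, GRCm38) encodes estrogen receptor alpha. It was read at 0.963, 1.01, 0.738 and 0.909 FPKM in the control libraries and at 0.940, 0.865, 0.581 and 0.631 FPKM in the cKO libraries, from 126 to 248 reads. The lowest values were those of cKO replicates 3 and 4, while cKO replicates 1 and 2 lay within the control range, so the groups overlapped. Within each set of replicates (1 and 2, 3 and 4) both cKO libraries lay below both controls. With these sets as a block the limma adjusted p was 0.390. The group means of 0.905 ± 0.119 FPKM in controls and 0.754 ± 0.176 FPKM in cKO (± SD) gave a log2 difference of -0.12 (SE 0.10, 95% interval -0.35 to 0.10, limma adjusted p = 0.590).

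Pgr (chr9:8899833-8968611, plus strand) encodes the progesterone receptor, itself a classical estrogen target. Its values were 1.18, 1.24, 0.796 and 0.873 FPKM in the control libraries and 1.00, 1.45, 0.840 and 0.895 FPKM in the cKO libraries, from 114 to 204 reads. The ranges covered each other almost completely, with cKO replicate 2 highest and control replicate 3 lowest. The log2 difference was 0.01 (SE 0.12, 95% interval -0.26 to 0.29, limma adjusted p = 0.970), and its sign changed under 5 of the 14 other settings that can move it.

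Prlr (chr15:10177238-10349180, plus strand) encodes the prolactin receptor. It was read at 1.94, 2.17, 1.75 and 1.61 FPKM in the control libraries and at 2.31, 2.19, 1.79 and 1.78 FPKM in the cKO libraries, from 435 to 683 reads. Replicates 1 and 2 were the higher libraries in both groups, and the groups overlapped. Within each set of replicates (1 and 2, 3 and 4) both cKO libraries lay above both controls. With these sets as a block the limma adjusted p was 0.538. The log2 difference was 0.07 (SE 0.09, 95% interval -0.14 to 0.29, limma adjusted p = 0.756). The intervals of the 3 receptors together ran from -0.35 to 0.29 on the log2(FPKM + 1) scale, a scale that understates the fold change of genes near 1 FPKM.

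**Figure D2:**
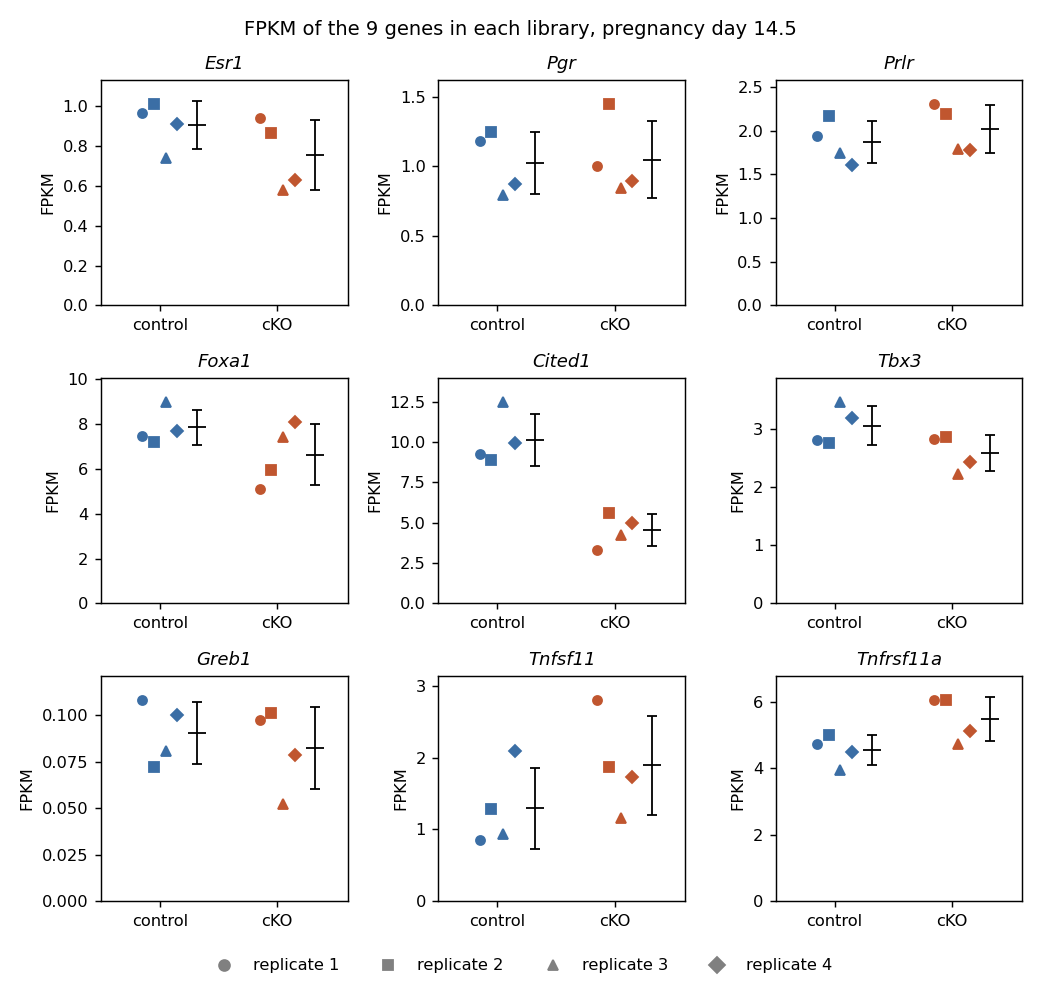
FPKM (y axis, linear, from 0) of each of the 9 genes in the 4 control and 4 cKO libraries, with a marker shape for each replicate number, and the mean ± SD of each group beside its points. The Cited1 points of cKO (3.34 to 5.63 FPKM) all lie below those of the controls (8.89 to 12.5 FPKM), and the groups overlap for the other 8 genes.

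Cited1 fell in the cKO libraries. Cited1 (ENSMUSG00000051159, chrX:102247381-102252181, minus strand) encodes a transcriptional coregulator that binds CBP/p300 and the estrogen receptor and marks hormone-sensing luminal cells. It was read at 9.24, 8.89, 12.5 and 9.93 FPKM in the control libraries and at 3.34, 5.63, 4.24 and 4.97 FPKM in the cKO libraries, from 113 to 367 reads. Every control library lay above every cKO library, with a gap between 5.63 and 8.89 FPKM. The means were 10.1 ± 1.63 and 4.55 ± 0.987 FPKM (SD, n = 4 each), 2.23-fold lower in cKO. The log2 difference was -1.01 (SE 0.15, 95% interval -1.34 to -0.68, limma adjusted p = 0.0268). The exact permutation test on this gene gave p = 0.0286 (two-sided), the smallest that 4 libraries against 4 allow.

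Among the 15143 genes tested, Cited1 ranked at place 38 by p, and 38 genes had a larger fall. Its log2 difference was -0.91 between the replicates numbered 1 and 2 and -1.12 between those numbered 3 and 4. In the 14 other settings that can move the difference it lay between -1.18 and -0.90, and the unadjusted limma p was under 0.05 in all 20 other settings run. The adjusted p did not stay under 0.05 in 9 of them: it was 0.0794 with no filter on low values, 0.0614 with the replicate number as a block, 0.0723, 0.0786, 0.0633 and 0.0877 without control replicates 1, 2, 3 and 4, and 0.0523, 0.0519 and 0.0666 without cKO replicates 2, 3 and 4 (limma). Without cKO replicate 1, the library with the lowest Cited1, the adjusted p was 0.0369.

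**Figure D3:**
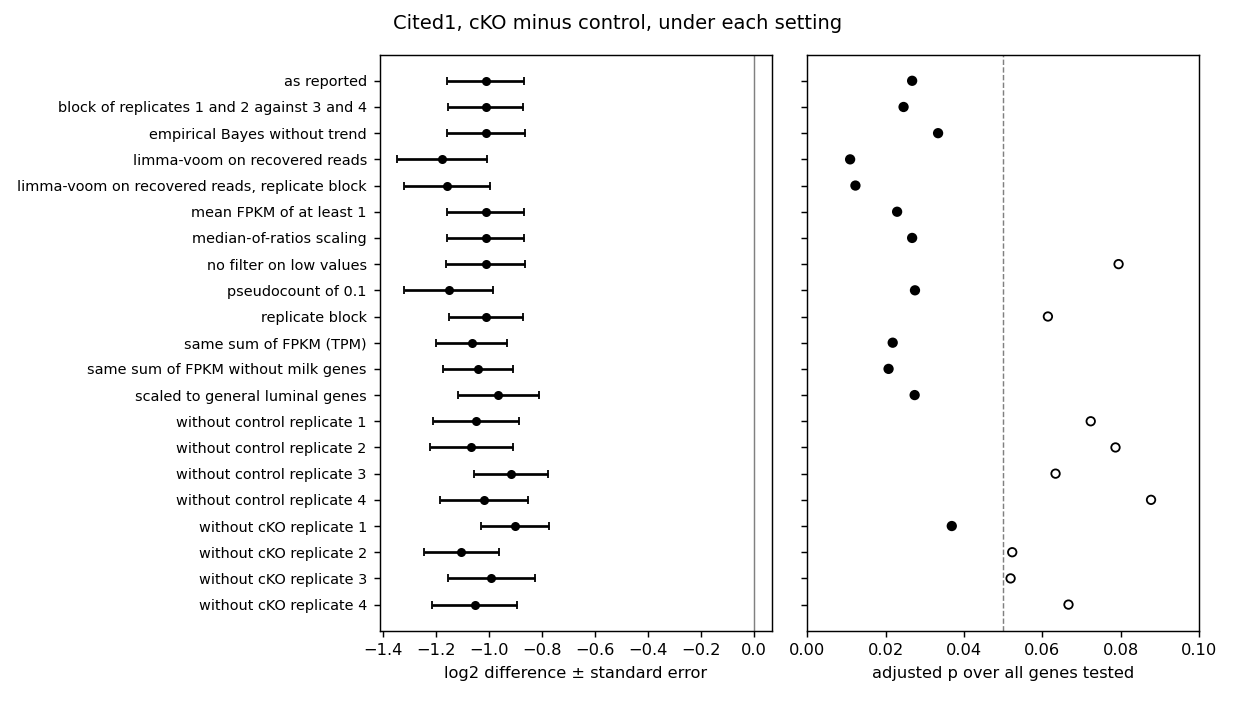
Cited1 under the reported setting (top) and 20 others, with the log2 difference of cKO minus control ± standard error at the left and the adjusted p over all genes tested at the right. The differences lie between -1.18 and -0.90, while the adjusted p lies on either side of the dashed line at 0.05, above it (open points) in 9 of the 20 settings.

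The sequences before the transcript starts are shown for Cited1, the gene that fell, beside Pgr, the nearest to no difference, and Tnfrsf11a, which had the lowest p of those with a higher mean in cKO. Each is the 250 bases before the start, from RefSeq (GRCm38.p6), where 8 of the 9 genes were found with 14 starts in all. The exception was Tbx3. For Cited1, whose table holds 3 starts, the outermost is printed. The windows are read 5′ to 3′ on the gene's own strand, at chrX:102252182-102252431 (minus strand) for Cited1, chr9:8899583-8899832 (plus strand) for Pgr and chr1:105780473-105780722 (plus strand) for Tnfrsf11a. Capitals mark the GC box GGGCGG, the core that Sp1 family factors bind, on either strand.
Cited1: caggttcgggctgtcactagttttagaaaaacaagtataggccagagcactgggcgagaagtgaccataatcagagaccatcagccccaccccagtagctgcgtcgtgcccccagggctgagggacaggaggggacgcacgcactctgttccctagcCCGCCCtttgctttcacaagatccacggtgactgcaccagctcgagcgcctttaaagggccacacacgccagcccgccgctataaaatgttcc
Pgr: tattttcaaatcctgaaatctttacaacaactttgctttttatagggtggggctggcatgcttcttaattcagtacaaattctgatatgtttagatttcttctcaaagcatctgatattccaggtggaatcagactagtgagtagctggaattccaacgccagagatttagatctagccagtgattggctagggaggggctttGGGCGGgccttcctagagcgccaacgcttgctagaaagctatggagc
Tnfrsf11a: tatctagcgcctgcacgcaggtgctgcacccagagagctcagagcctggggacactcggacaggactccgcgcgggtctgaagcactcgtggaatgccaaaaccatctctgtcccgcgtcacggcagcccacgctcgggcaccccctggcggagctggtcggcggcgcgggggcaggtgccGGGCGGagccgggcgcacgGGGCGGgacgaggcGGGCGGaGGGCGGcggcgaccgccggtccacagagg
The GC box stands 93 bases before the start of Cited1 (read there as its reverse complement CCGCCC), 47 bases before that of Pgr, and at 4 places in the window of Tnfrsf11a, 69, 50, 36 and 29 bases before the start. It was found in 4 of the 14 windows, those 3 and that of Foxa1, and in 32.7% of 32817 such windows of the genome. Of the 6 other motifs searched on both strands, none was in the printed windows. They were AGGTCA (the core bound by the estrogen receptor), AGAACA (progesterone receptor), TGTTTAC (FOXA1), GGCGCC (BMP SMADs), TTCNNNGAA (STAT5) and GGTGTGA (T-box factors), held by 14.0%, 16.1%, 3.16%, 9.59%, 7.01% and 3.33% of all windows, and no match overlapped another. The innermost of the Cited1 starts has AGGTCA 217 bases and GGCGCC 87 bases before it. AGGTCA was also found before a start of Greb1, TGTTTAC before starts of Foxa1 and Prlr, the T-box core and AGAACA before starts of Prlr, and the STAT5 core before a start each of Esr1 and Prlr. A match is a description of the letters in a window and not a bound site.

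The other transcription factors of the hormone-sensing cells did not pass the test. Foxa1 (chr12:57540628-57546916, minus strand) encodes the pioneer factor that opens chromatin for the estrogen receptor. The control libraries held 7.48, 7.22, 8.99 and 7.70 FPKM of it and the cKO libraries 5.09, 5.94, 7.40 and 8.11 FPKM. cKO replicates 1 and 2 lay below all controls, while replicates 3 and 4 lay among them. The log2 difference was -0.23 (SE 0.13, 95% interval -0.52 to 0.07, limma adjusted p = 0.433). In the 20 other settings the unadjusted limma p was under 0.05 in 4, and the adjusted p ranged from 0.178 to 0.659.

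Tbx3 (chr5:119670669-119684724, plus strand) encodes a T-box repressor needed for mammary gland formation and made by hormone-sensing luminal cells. Its level was 2.80, 2.76, 3.47 and 3.19 FPKM in the control libraries and 2.82, 2.86, 2.23 and 2.43 FPKM in the cKO libraries. In replicates 1 and 2 the groups were level, and in replicates 3 and 4 the cKO libraries were lower, with log2 differences of 0.02 and -0.38. Over all libraries the log2 difference was -0.18 (SE 0.09, 95% interval -0.38 to 0.03, limma adjusted p = 0.374). Exons of Tbx3 overlap its antisense transcript Tbx3os1, on which at most 14 reads were counted in a library, against at least 235 on Tbx3.

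Greb1 (chr12:16670615-16800886, minus strand), an estrogen-induced cofactor of the estrogen receptor, was barely detected. It was read at 0.108, 0.0723, 0.0810 and 0.1001 FPKM in the control libraries and at 0.0973, 0.101, 0.0526 and 0.0787 FPKM in the cKO libraries, from 8 to 18 reads per library. The ranges lay over each other (two-sided exact permutation p = 0.543), and with so few reads a small difference could not be seen.

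The RANKL and RANK genes had higher means in cKO, and neither passed the adjusted test. Tnfsf11 (chr14:78277445-78308043, minus strand) was read at 0.852, 1.29, 0.934 and 2.10 FPKM in the control libraries and at 2.80, 1.87, 1.15 and 1.73 FPKM in the cKO libraries, from 33 to 121 reads. Control replicate 4 was higher than 3 of the 4 cKO libraries. Its log2 difference was 0.33 (SE 0.20, 95% interval -0.13 to 0.80, limma adjusted p = 0.465), with 0.68 between the replicates numbered 1 and 2 and -0.01 between those numbered 3 and 4. It was 0.19 without cKO replicate 1, the highest library, and 0.49 without control replicate 4, and the adjusted p with a library left out ranged from 0.292 to 0.692 (limma). The spread within a group, 44.0% of the mean in controls and 36.1% in cKO, was well above the 13.9% and 11.5% that counting error alone gives for these reads.

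Tnfrsf11a (chr1:105780718-105847981, plus strand) was read at 4.74, 5.01, 3.95 and 4.49 FPKM in the control libraries and at 6.04, 6.06, 4.73 and 5.13 FPKM in the cKO libraries, from 396 to 698 reads. Only cKO replicate 3 lay within the control range. The means were 4.55 ± 0.451 and 5.49 ± 0.665 FPKM (SD, n = 4 each). The log2 difference was 0.22 (SE 0.09, 95% interval 0.01 to 0.44, limma adjusted p = 0.282), with 0.26 in replicates 1 and 2 and 0.19 in replicates 3 and 4. The exact permutation test on its values gave p = 0.0857 (two-sided). In the other settings the difference lay between 0.17 and 0.28, with an unadjusted limma p under 0.05 in 12 of 20 and an adjusted p from 0.0780 to 0.625.

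FPKM, being per length, also allow the levels of different genes to be set in order. By the mean of the control libraries Cited1 led, followed by Foxa1, Tnfrsf11a, Tbx3, Prlr, Tnfsf11, Pgr, Esr1 and Greb1. Each pair of neighbours from Prlr to Esr1 kept this order in 3 of the 4 control libraries. Cited1 and Foxa1 overlapped in their ranges, as did the neighbours from Prlr to Esr1, and the other neighbours did not. In the cKO libraries the mean of Cited1 lay below those of Foxa1 and Tnfrsf11a, with a range that overlapped both of theirs, and Cited1 remained above Tbx3 in all 4 libraries.

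Ratios within a library do not depend on how the library is scaled. The ratio of Cited1 to Foxa1 was 1.23 to 1.39 in the control libraries and 0.572 to 0.948 in the cKO libraries, that of Cited1 to Tbx3 was 3.12 to 3.60 and 1.18 to 2.05, and that of Cited1 to Esr1 was 8.80 to 16.9 and 3.55 to 7.89. None of these ranges overlapped, and since Cited1 is in all 3 ratios, they largely restate its fall. The ratio of Prlr to Esr1 was 1.77 to 2.37 in the control libraries and 2.45 to 3.08 in the cKO libraries, higher in cKO by 0.39 on the log2 scale. This ratio gave p = 0.0286 (exact permutation test, two-sided, the smallest possible), or 0.05 after Benjamini-Hochberg adjustment over the 7 ratios computed. The adjusted value is that low only because the 3 ratios with Cited1, which largely restate its fall, share the same smallest p. The ratio of Pgr to Esr1 overlapped between the groups (log2 difference 0.31, exact permutation p = 0.143), and so did those of Tnfsf11 to Pgr (0.55, exact permutation p = 0.229) and of Tnfsf11 to Tnfrsf11b, which encodes the RANKL decoy receptor osteoprotegerin (0.82, exact permutation p = 0.171).

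**Figure D4:**
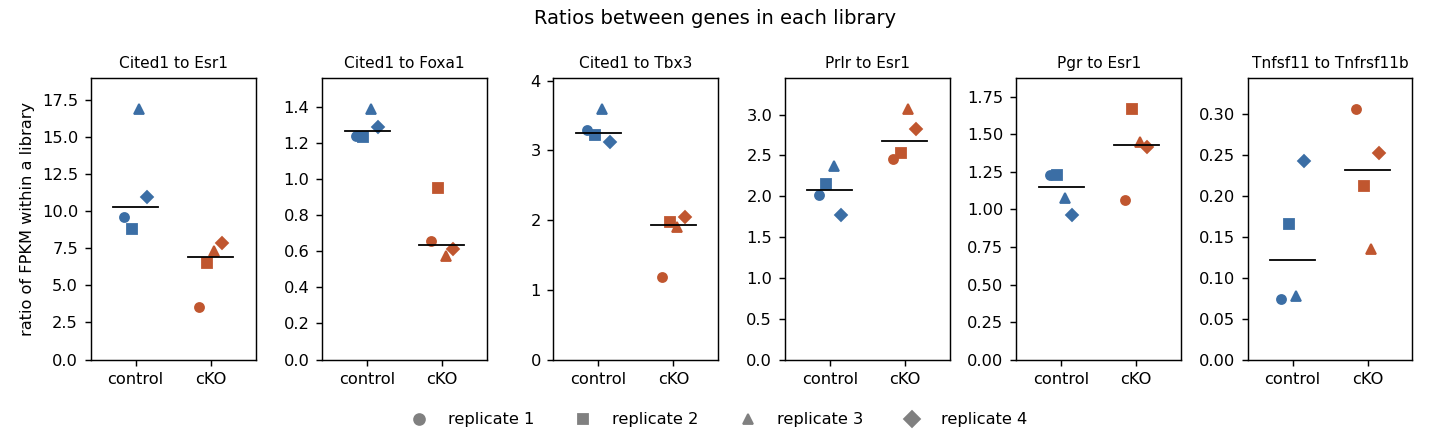
Ratio of the FPKM of a pair of genes within each library (y axes, linear, from 0), with a marker shape for each replicate number and a black line at the median of the group, n = 4 per group. The 3 ratios with Cited1 are lower in every cKO library than in any control library, the ratio of Prlr to Esr1 is higher in every cKO library (2.45 to 3.08) than in any control library (1.77 to 2.37), and the last 2 ratios overlap.

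The replicate number moved with the level of several of these genes. Replicates 1 and 2 lay above replicates 3 and 4 in both groups for Esr1, Pgr, Prlr and Tnfrsf11a, and below them in both groups for Foxa1. For Tbx3 they lay below in the controls and above in cKO. The labels do not say what the numbers stand for, and this split was known from earlier values of these libraries.

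Other genes of the same cells and pathways were mostly not called. Of 8 further hormone-sensing markers tested, 1 rose, Xbp1, a secretory pathway transcription factor that is induced by estrogen in breast cells and that alveolar cells also use. It was read at 106, 106, 103 and 99.3 FPKM in the control libraries and at 143, 143, 143 and 149 FPKM in the cKO libraries, with no overlap. The log2 difference was 0.48 (SE 0.06, limma adjusted p = 0.0204), and the adjusted p was above 0.05 without any 1 of the 4 controls, without cKO replicate 2 or 4 (0.0523 to 0.0837), and with scaling to luminal genes (0.0969). The other 7 did not pass, and the median of the 8 was -0.11, with 6 lower means. Areg, the EGF receptor ligand amphiregulin through which estrogen drives duct growth, was 19.6 ± 6.25 FPKM in controls and 14.5 ± 2.67 FPKM in cKO (limma adjusted p = 0.419). Calca, the calcitonin gene that progesterone induces in pregnancy, was 67.5 ± 10.1 and 53.8 ± 9.45 FPKM (limma adjusted p = 0.316). Wnt4, a progesterone-induced signal to basal cells, was 6.23 ± 0.908 and 6.05 ± 0.817 FPKM (SD, n = 4 each).

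Among 17 tested partners of the steroid receptors, none passed the adjusted test. An unadjusted limma p under 0.05 was found for 3 of the 17, against 16.4% of all genes tested. Among these 3, the chaperone gene Hsp90aa1 was 256 ± 35.7 FPKM in controls and 370 ± 73.3 FPKM in cKO (limma adjusted p = 0.149), and Pgrmc1 had a lower mean in cKO. Of 10 estrogen and progesterone targets, Xbp1 was the only one called by either threshold.

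The RANK pathway list of 14 genes holds the decoy receptor gene Tnfrsf11b and Rspo1 beside signalling genes. None of the 14 passed the adjusted test, and 4 had an unadjusted limma p under 0.05, 2 in each direction. Over all genes tested, 16.4% had such a p (8.85% higher and 7.53% lower in cKO). Traf6, the adaptor that RANK recruits, was 9.73 ± 0.546 FPKM in controls and 11.9 ± 0.827 FPKM in cKO (limma adjusted p = 0.113). Elf5, the alveolar transcription factor that lies downstream of both progesterone and prolactin, was 21.3 ± 3.91 and 38.5 ± 8.02 FPKM, with no overlap (log2 difference 0.82, SE 0.16, limma adjusted p = 0.0591). Its adjusted p was under 0.05 in 7 of the 20 other settings, and ranged over them from 0.00216 to 0.146 (limma). Nfkb1 and Nfkb2, the NF-kappaB precursors, had lower means in cKO, and Nfkb1 had a limma adjusted p of 0.0417 with the sets of replicates (1 and 2, 3 and 4) as a block. Of 10 genes of the prolactin pathway list, none passed the adjusted test. An unadjusted limma p under 0.05 was found for 4 of the 10, again against 16.4% of all genes tested. Jak2, Stat5a and Stat5b, the kinase and the factors it activates, were not among them. Those 4 were Elf5, Socs3 and Ghr (the related growth hormone receptor), higher in cKO, and Socs1, an inhibitor of JAK kinases, at 10.9 ± 1.15 and 7.70 ± 1.41 FPKM (limma adjusted p = 0.116, or 0.0366 with the block by sets).

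**Figure D5:**
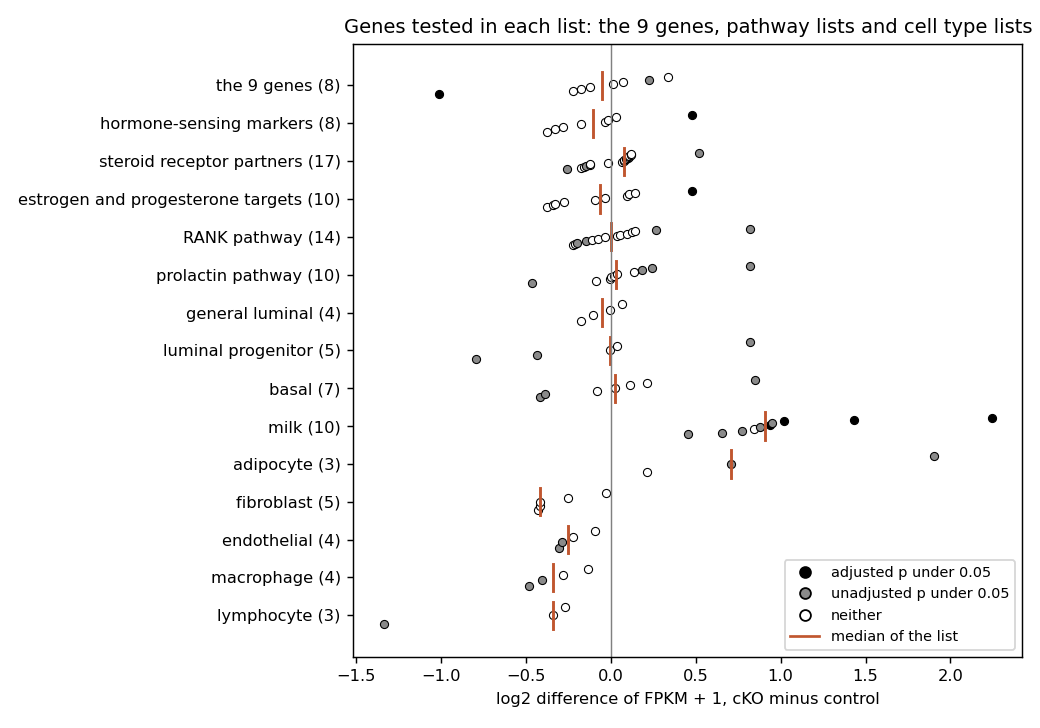
Log2 difference of FPKM + 1 (cKO minus control, x axis) for each tested gene of the 9 and of 14 pathway and cell type lists, with the number tested in brackets (a gene on several lists is drawn in each) and a coloured line at the median of each list. Black points have an adjusted p under 0.05, grey points an unadjusted p under 0.05. Cited1 stands apart at -1.01 in the top row, and the milk genes lie to the right of 0.

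Genes of the milk list rose in cKO, and the lists for other cells in the preparation held no adjusted call. All 10 milk genes had a higher mean in cKO, 9 at an unadjusted and 4 at an adjusted limma p under 0.05 (Csn2, Csn1s2a, Wap and Muc15), and their summed level was 4174 to 6038 FPKM in controls and 9201 to 16315 FPKM in cKO. The adjusted calls of these 4 genes were lost in 6 (Muc15) to 10 (Wap) of the 20 other settings. Neither the general luminal genes (Krt8, Krt18, Krt19 and Epcam) nor the fibroblast genes (among them Col1a1 and Col1a2) held a gene at an unadjusted limma p under 0.05, with sums of 4451 to 5645 against 4336 to 5619 FPKM and of 397 to 834 against 270 to 629 FPKM. With each library scaled to the 4 luminal genes, Cited1 fell by 0.96 on the log2 scale (limma adjusted p = 0.0274). No adjusted call was made among the basal, luminal progenitor, adipocyte, endothelial, macrophage and lymphocyte lists, but with the sets of replicates (1 and 2, 3 and 4) as a block the basal genes Krt14 and Trp63, both lower in cKO, had limma adjusted p of 0.0187 and 0.0456, and Elf5, of the luminal progenitor list, 0.00651. At an unadjusted limma p under 0.05, the basal list had 1 gene higher (Oxtr) and 2 lower (Krt14 and Trp63) of 7, the luminal progenitor list 1 higher (Elf5) and 2 lower (Itgb3 and Aldh1a3) of 5, and the adipocyte list 2 higher (Adipoq and Cfd) of 3. The endothelial and macrophage lists had 2 lower of 4 each (Pecam1 and Emcn, Adgre1 and C1qa). Over all genes tested, 8.85% were higher and 7.53% lower in cKO at that unadjusted threshold, and 0.892% passed the adjusted test. The summed macrophage level was 74.2 to 103 FPKM in controls and 54.4 to 78.6 FPKM in cKO, the endothelial sum 63.4 to 74.5 and 46.0 to 70.7 FPKM, the basal sum 1589 to 2165 and 1491 to 2056 FPKM, and the adipocyte sum 78.4 to 121 and 101 to 135 FPKM. The part of these cell types in the fall of Cited1 and in the values of Tnfrsf11a was not tested.

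The genes most like each receptor across the 8 libraries, after the mean of each group was removed, were sought among 12923 genes with a mean of at least 1 FPKM. For Esr1 they were Epc2, Fndc3a and the small nucleolar RNA gene Gm24500 (Pearson r of 0.99, 0.99 and 0.98), for Pgr they were Dicer1, Tgs1 and Zc2hc1a (0.99, 0.98 and 0.98), and for Prlr they were Slc43a2, Prpf18 and Mllt10 (0.99, 0.98 and 0.98). These are descriptions over 8 libraries that share the split by replicate number, and 168, 139 and 169 genes had an r above 0.9 with Esr1, Pgr and Prlr. No hormone-sensing gene was among the 9 named.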

How the data were processed

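RNA-seq libraries of 4 control (labelled WT) and 4 cKO mice were compared. The authors deposited FPKM per gene and library. Their methods name Hisat2 and GRCm38, and the labels' processing notes name StringTie 1.3.3b, featureCounts 1.5.0-p3 and mm9. The coordinates of 99.68% of the 55394 gene identifiers found in GENCODE vM21 (GRCm38) were identical there, so GRCm38 is used. FPKM multiplied by gene length were whole multiples of a constant step per library for 100% of values (tolerance 0.01 of a read), which gave reads per gene and showed that size factors had already been applied. Counting with regard to strand is not stated, so reads of overlapping genes cannot be told apart.

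Groups were compared by limma 3.58.1 on log2(FPKM + 1) (R 4.3.3, trended empirical Bayes, Benjamini-Hochberg over all genes tested) where the mean FPKM was at least 0.5. Single values were compared by exact permutation (numpy 2.4.6), and the p-values of the ratios were adjusted with scipy 1.17.1. Named are the 9 genes, Bmpr1a, and of each list the genes with an adjusted p under 0.05 or else the pair with the lowest p. Other genes were named after their values were seen, and some results that the rule would name are not reported here. The members and lists were chosen with earlier results of these data known. The procedure was tested on simulated data. Alternatives were another pseudocount, filters, scalings, blocks, limma-voom on recovered reads and each library left out. No pair of libraries in a group agreed within counting noise (lowest chi-square per degree of freedom 8.18). The number of mice limits precision, and for Greb1 so do its few reads.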

Additional observations from a re-analysis of the deposited data

How the results depend on the processing

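Of the 9 genes, 8 were tested, and the direction held for Esr1, Prlr, Foxa1, Cited1, Tbx3, Tnfsf11 and Tnfrsf11a in the 14 settings that can move a difference. In the other 6 (both blocks, no trend, both filters and median-of-ratios scaling) the difference is the reported one, and Esr1 could not be tested at a mean of at least 1 FPKM. The exception was Pgr, at -0.019 with the same sum of FPKM per library, -0.0046 with that sum taken without milk genes, and -0.076 to 0.065 with a library left out, below 0 without control replicate 3 (-0.042), control replicate 4 (-0.022) or cKO replicate 2. The cause was not tested.

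Adjusted calls changed more than directions did. Of the 9 genes, 0 were called with no filter, and 0 to 1 with a library left out (1 in the reported setting). At an unadjusted p, 1 was called with scaling to luminal genes and 1 to 3 with a library left out (2 as reported). With the sets of replicates (1 and 2, 3 and 4) as a block 3 were called, Foxa1 among them. Among pathway genes 1 was called as reported, 4 with the sets of replicates (1 and 2, 3 and 4) as a block, 2 with limma-voom, 2 with either sum of FPKM, and 0 to 1 with a library left out. At an unadjusted p they numbered 11 as reported, 5 with scaling to luminal genes, and 8 to 12 with a library left out. Cell type genes numbered 4 as reported, 0 with no filter, 10 with the set block, 9 with limma-voom, 8 with either sum of FPKM, 8 with luminal scaling, and 0 to 2 with a library left out. At an unadjusted p they numbered 22, and 19 to 23 with a library left out. Over all genes the adjusted count was 135, against 442 with the set block, 238 with limma-voom, 10 with no filter, 66 with luminal scaling and 0 to 78 with a library left out. The unadjusted count was 2480, and 2042 to 2514 with a library left out. No filter tests more genes (31373) and leaving out a library leaves fewer libraries. For the other settings the cause was not tested. Of all genes at an unadjusted p, 54.0% were higher in cKO as reported, 32.2% with the same sum of FPKM, 41.6% with that sum without milk genes and 72.4% with luminal scaling.

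Replicate numbers are shared by the labels of both groups, but nothing says that they mark a litter or a day. Deviations of same-numbered libraries correlated at 0.0797 to 0.137, and 1 of 4 control and 2 of 4 cKO libraries correlated best with their own number. Correlations this weak, over 4 libraries per group, cannot decide whether a number pairs 1 control with 1 cKO library. Correlations between the groups averaged 0.11 for the same number, 0.13 for the other number of the same set, and -0.12 across sets. Since the sets were known from earlier values of these libraries and group means were removed, this describes the split and does not test it. In the fit with this replicate block, 0 of the 9 genes, 2 pathway genes, 6 cell type genes and 50 genes in all were called at an adjusted p, and with the block in limma-voom 1, 5, 18 and 667. At an unadjusted p that last fit called 18 pathway genes.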
